A study of Saccharomyces cerevisiae with 24 samples.

Results

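PR-438 is 1 of 8 adapted Saccharomyces cerevisiae mutants whose RNA was compared with a fluorescent reference strain on 2-colour arrays. The arrays described here are the 3 labelled with the genotype PR-438 against DsRed, out of 24 arrays in the series, and they were chosen by that label alone. They lay on slides 1, 2 and 3, always in column 1 and row 2, so the position on the slide cannot be told apart from the mutant. The same DsRed reference was used for PR-338, PR-164 and M1, with 3 arrays each, which serve here as the comparison. All 4 strains are labelled as adaptive mutants, and all share the reference labelled DsRed. The labels name neither the mutations of PR-438 nor its parent strain, nor whether a mutant is 1 clone. Growth was in glucose-free YNB minimal medium and in biomass hydrolysate (1 g/mL), and it is not stated whether these were separate cultures. The 3 sets are described as biological replicas, and each set shared 1 slide.

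Hydrolysates of plant biomass hold sugars together with weak acids, furan aldehydes and phenolic compounds that slow the growth of yeast. Cells meet them with reductases and dehydrogenases that detoxify aldehydes, with efflux pumps, with antioxidant enzymes and with the general stress response, which also builds up trehalose and glycogen. Growth has its own programme: genes for ribosomal proteins, for ribosome assembly, for RNA polymerases and for amino acid and nucleotide synthesis move together with growth rate. A mutant's expression can also shift along a whole chromosome, which shows up only when genes are read by their position. The arrays measured RNA, and DNA copy number was not measured.

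All values below are log2 ratios of mutant over DsRed, relative to the median of the named probes of each array, and slides 1, 2 and 3 are given in that order. A fitted ratio is the mutant's coefficient from limma with its SE (n = 3 arrays unless stated). It is not the plain mean of the arrays, since a dye term takes out what sets slide 2, where the mutant was in Cy3, apart from the other slides. A gene passed at a Benjamini-Hochberg adjusted p under 0.05 over 4065 named genes. A difference from the other DsRed mutants is the PR-438 coefficient minus the mean of the coefficients of PR-338, PR-164 and M1. The shared reference cancels in it, and so does the dye term while each mutant has all its arrays. Where a PR-438 array alone is left out, the dye term does not cancel in full.

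Some facts about the arrays come before the results. The deposited ratios are not scaled between channels, and their median over all probes was 0.447, 3.35 and 1.22 on the PR-438 arrays. The probes of 1 gene correlated at 0.747, 0.902 and 0.428 on these arrays. Spot brightness in this text was not read from a scanner. It was inferred from the deposited ratios, each taken as the smallest quotient of whole numbers that gives it. Across genes the PR-438 arrays resembled each other weakly: Spearman's rho was 0.00 between slides 1 and 2, 0.33 between slides 1 and 3 and 0.28 between slides 2 and 3, as a description over genes that share probes and dyes. No label says which way the slide 2 ratios run, and mutant over reference is likely. The basis is that the mating genes of M1 and the chromosome VIII genes of PR-438 pointed the same way there as on slide 3, so for chromosome VIII the choice is not independent of the result. On slide 1, 2 arrays differed from the other arrays that carry the same genotype label, and whether their labels are right was not tested. The array labelled M1 replicate 1 lacked the mating-gene differences of the other M1 arrays: STE2, the alpha-factor receptor of a cells, had -0.24, 3.92 and 4.29 in M1 on slides 1, 2 and 3. Likewise the array labelled PR-438 replicate 1 lacked the chromosome VIII shift of the other PR-438 arrays. The array labelled PR-438 replicate 1 is therefore named as such, and values without it are given beside the calls and the gene groups that move without it. PY-231 replicate 1 carried no gene signal, with a correlation of -0.0095 between the probes of 1 gene. It enters the fit through the shared spread and through the dye term, which all arrays of the series share.

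Chromosome VIII genes had higher ratios in PR-438 than genes of the other chromosomes did. The median of its 187 measured genes, minus the all-gene median, was 0.01 on the array labelled replicate 1, 0.44 on replicate 2 and 0.46 on replicate 3. The other 15 chromosomes ran from -0.08 to 0.06, from -0.08 to 0.04 and from -0.06 to 0.06 on the same arrays. On slides 2 and 3 chromosome VIII thus lay above every other chromosome, by 0.41 and 0.40, and its distance from the all-gene median equals a ratio of 1.36 and 1.37. On slide 1 it lay among the others. On the 9 arrays of PR-338, PR-164 and M1 the same median ran from -0.11 to 0.04, with a middle value of -0.02.

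The fitted shift was 0.31 ± 0.07 against DsRed (adjusted p = 0.00313 by limma over 16 chromosomes) and 0.33 ± 0.08 above the mean of the other DsRed mutants (adjusted p = 0.0051 by limma). No other chromosome passed in either comparison. The nearest were chromosome V against DsRed, at -0.04 (adjusted p = 0.424 by limma), and chromosome XI in the difference, at -0.04 (adjusted p = 0.155 by limma). Without the array labelled PR-438 replicate 1 the shift was 0.45 and the difference 0.48, with adjusted p = 2.96e-06 and 4.84e-06 by limma. That array was singled out because it lacked this very shift, so these p-values are no separate test of it. The shift rested on the pair of slides that show it. Without PR-438 replicate 2 it was 0.23 (adjusted p = 0.191 by limma), and without PR-438 replicate 3 it was also 0.23 (adjusted p = 0.119 by limma). With slide 2 turned round it was -0.01, since the 2 slides then cancel. One array outside this group had a value of the same size: the array labelled PG-259 replicate 1, also on slide 1, had 0.42 for chromosome VIII, and the other 20 arrays of the series ran from -0.11 to 0.08.

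**Figure D1:**
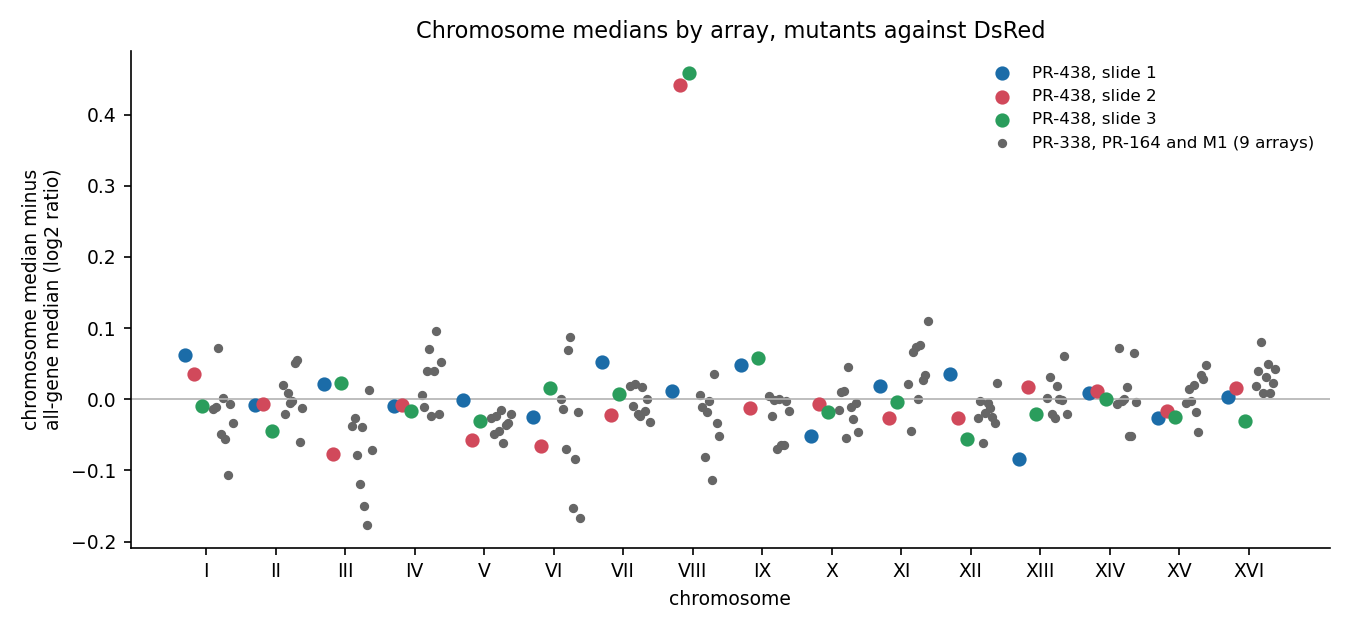
Chromosome medians by array. The x axis gives the 16 chromosomes and the y axis the median log2 ratio of a chromosome's genes minus the all-gene median of the array. Coloured points are the 3 PR-438 arrays and grey points the 9 arrays of PR-338, PR-164 and M1. Chromosome VIII lies at 0.44 and 0.46 on slides 2 and 3 of PR-438, and at 0.01 on slide 1.

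The shift was spread over the chromosome and its genes. On slide 2, 145 of the 187 genes lay above the array's all-gene median, on slide 3 it was 161, and on the array labelled replicate 1 it was 94. Set against the mean of the other DsRed mutants on the same slide, 123 of 187 chromosome VIII genes (65.8%) were higher on slides 2 and 3 both, against 637 of 3878 genes elsewhere (16.4%). Only 1 chromosome VIII gene was lower on both slides, which is 0.535%, against 23.9% of the genes elsewhere. With slide 2 turned round, 31 chromosome VIII genes (16.6%) were higher on both slides, against 31.6% of the genes elsewhere. These shares describe genes that sit on 1 chromosome and share 2 slides, and genes are not replicates.

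Cut into 6 stretches of 31 or 32 genes in their order along the chromosome, chromosome VIII had medians of 0.36 to 0.49 on slide 2 and of 0.33 to 0.56 on slide 3. The lowest stretch was the first on slide 2, from COS8 to QCR10, and the third on slide 3, from DOG2 to PPE1. No stretch of either slide was near 0. On the array labelled replicate 1 the stretches ran from -0.23 to 0.15, on both sides of 0. The shift did not depend on dim spots alone: among genes below the median brightness the chromosome stood above the rest by 0.45 and 0.49 on slides 2 and 3, and among brighter genes by 0.41 and 0.50. In the brightest 10% of genes, with 23 chromosome VIII genes, it stood at -0.10 and 0.14.

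**Figure D2:**
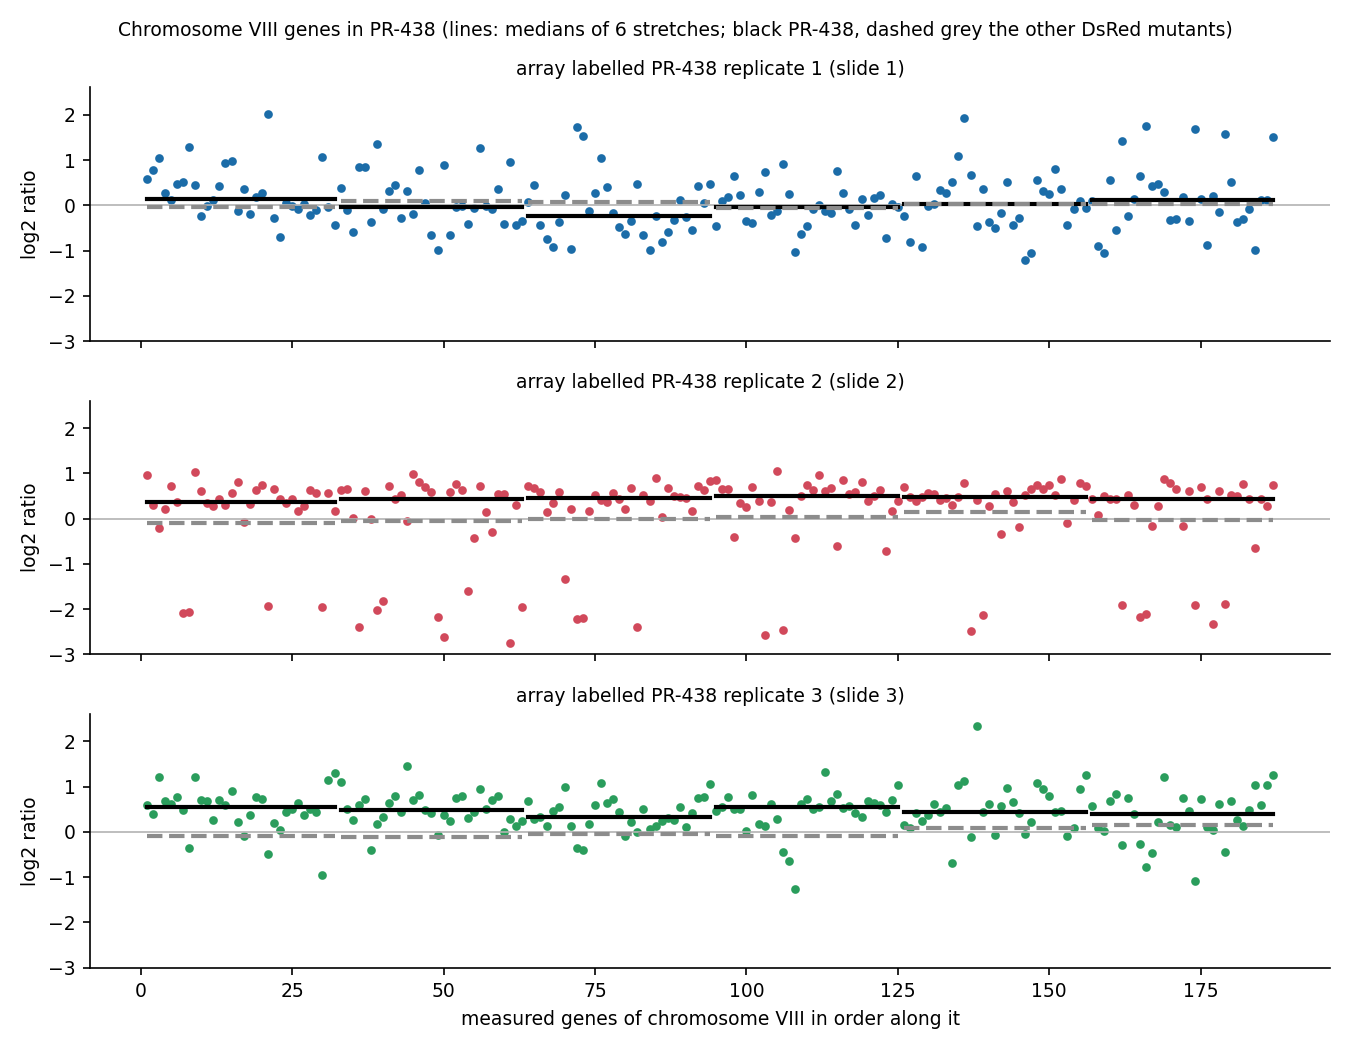
Chromosome VIII genes of PR-438 in their order along the chromosome, one panel per array, with the log2 ratio on the y axis. Black lines are medians of 6 stretches in PR-438 and dashed grey lines those of the mean of the other DsRed mutants on the same slide. The black lines lie between 0.33 and 0.56 on slides 2 and 3, and the low points near -2 on slide 2 are bright spots.

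Several chromosome VIII genes were high on every PR-438 array. SPS100, a protein of spore wall maturation, had 1.93, 0.78 and 1.13 in PR-438, against -1.80 to 1.04 on the 9 arrays of the other DsRed mutants. Its spots were dim, with a log2 brightness of 5.86 beside a median of 10.79 over all genes. IMD2, an IMP dehydrogenase of guanine nucleotide synthesis, had 1.51, 0.75 and 1.25 in PR-438, against -1.02 to 0.89 in the others. Both overlapped the other mutants on 1 PR-438 array, on slide 2. MED6, a subunit of the Mediator complex that links activators to RNA polymerase II, had 1.04, 0.42 and 1.09 in PR-438, against -0.58 to 0.43 in the others. STP2, a transcription factor that turns on amino acid permease genes, had 0.84, 0.61 and 0.72 in PR-438, against -0.16 to 0.32 in the others. The STP2 values of PR-438 lay above all 9 of the other arrays, and those of MED6 did so on slides 1 and 3. YSC84, an actin-binding protein of endocytosis, had 0.78, 0.80 and 0.82 in PR-438, against -0.71 to 0.71 in the others. DAP2, a vacuolar dipeptidyl aminopeptidase, had 1.26, 0.72 and 0.94 in PR-438, against -0.25 to 1.08 in the others. GUT1, the glycerol kinase, had 0.46, 1.03 and 1.21 in PR-438, against -0.90 to 1.00 in the others. YSC84 did not overlap the other mutants, while DAP2 and GUT1 did. All these genes were picked for high PR-438 ratios, so a lack of overlap is description only.

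Fitted ratios of these genes were 1.20 ± 0.44 for SPS100, 1.17 ± 0.29 for IMD2, 0.91 ± 0.19 for MED6 and 0.69 ± 0.15 for STP2, and none passed over all genes. MED6 and STP2 came closest, each with adjusted p = 0.0516 by limma, and both passed with slides 1 and 3 separated by a replicate block (adjusted p = 0.046 for each by limma). Of the 187 genes, 64 were above 0 on all 3 arrays and 4 were below 0 on all 3. Among the rest of the 4065 genes, a far larger set, 780 were above 0 on all 3 and 699 below. The lowest fitted ratios on the chromosome belonged to bright genes: DED81, the asparaginyl-tRNA synthetase, at -1.29 ± 0.28, RPL14B of the large ribosomal subunit at -1.13 ± 0.56 and OYE2, an NADPH oxidoreductase, at -1.12 ± 0.48. Each of these was lowest on slide 2, where OYE2 had -2.17 after 0.65 on slide 1.

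Against DsRed, 12 genes were lower in PR-438 and 0 were higher by limma, while 539 genes had an unadjusted p under 0.05. The 12 are 0.295% of the genes tested. They fall into 4 kinds: cytosolic ribosomal proteins, enzymes of amino acid and nucleotide synthesis, sugar and cell wall enzymes, and a pair of proteins that bind nucleic acids. Each was below 0 on every PR-438 array and each was lowest on slide 2. Each also had a fitted ratio below 0 in PR-338, PR-164 and M1, and some passed there as well. PAB1 had -1.23, -1.65 and -1.56 in these mutants (adjusted p = 0.0483, 0.00513 and 0.00758 by limma). FKS1 passed in PR-164 and M1, and ARG1, GUA1 and LYS12 passed in PR-164.

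The ribosomal protein genes were RPL13A and RPL21B of the large subunit and RPS10B and RPS7A of the small one. RPL13A had -0.97, -2.56 and -0.49 in PR-438, against -1.24 to 0.11 on the 9 other DsRed arrays. RPL21B had -0.69, -1.91 and -0.58 in PR-438, against -1.92 to 0.81 in the others. The PR-438 arrays of RPL13A reached below the other mutants on slide 2, and RPL21B overlapped them throughout. RPS10B had -0.92, -1.97 and -0.44 in PR-438, against -1.72 to 0.60 in the others. RPS7A had -0.52, -2.26 and -0.80 in PR-438, against -1.01 to 0.40 in the others. Both overlapped the others on slides 1 and 3 and lay below them on slide 2. The fitted ratios were -1.58 ± 0.32, -1.35 ± 0.28, -1.39 ± 0.28 and -1.37 ± 0.28 in the order RPL13A, RPL21B, RPS10B and RPS7A (adjusted p = 0.0387 to 0.045 by limma). Each of these genes has a near-identical paralog, so its spots may also have taken up the other copy.

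Among the biosynthetic enzymes, ARG1, the argininosuccinate synthetase, had -1.44, -2.33 and -0.84 in PR-438, against -1.74 to -0.24 in the other DsRed mutants. LYS12, the homoisocitrate dehydrogenase of lysine synthesis, had -0.41, -2.25 and -0.14 in PR-438, against -2.02 to 1.09 in the others. GUA1, the GMP synthase, had -0.89, -2.36 and -0.85 in PR-438, against -1.84 to -0.20 in the others. All 3 overlapped the other mutants on slides 1 and 3 and lay below them on slide 2. The fitted ratios were -1.75 ± 0.31 for ARG1, -1.22 ± 0.24 for LYS12 and -1.63 ± 0.32 for GUA1 (adjusted p = 0.0181, 0.0387 and 0.0387 by limma).

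FKS1, a catalytic subunit of the glucan synthase that builds the cell wall, had -0.24, -2.60 and -0.38 in PR-438, against -2.33 to 0.36 in the other DsRed mutants. TKL1, the transketolase of the pentose phosphate pathway, had -0.26, -2.59 and -0.64 in PR-438, against -2.40 to 0.34 in the others. PMI40, the mannose-6-phosphate isomerase that feeds protein mannosylation, had -0.84, -2.29 and -0.34 in PR-438, against -1.11 to -0.19 in the others. For these genes slide 2 of PR-438 was the lowest of the 12 DsRed arrays, and slides 1 and 3 fell among the others. PAB1, the poly(A)-binding protein, had -0.40, -2.26 and -0.65 in PR-438, against -2.22 to -0.24 in the others. HTB2, a histone H2B with a close copy in HTB1, had -0.90, -1.85 and -0.61 in PR-438, against -2.03 to 0.81 in the others. The fitted ratios were -1.38 ± 0.22 for FKS1, -1.502 ± 0.25 for TKL1, -1.32 ± 0.27 for PMI40, -1.40 ± 0.24 for PAB1 and -1.33 ± 0.27 for HTB2 (adjusted p = 0.0176 to 0.044 by limma).

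Spot brightness moved with these calls. All 12 genes lay in the brightest 10% of genes, whose order of brightness is not resolved any further. Brightness was inferred from the ratios themselves, and a ratio without a simple quotient can fall into this class. The median log2 ratio of that class was 1.03, -2.08 and -0.25 on the PR-438 arrays while the 9 dimmer classes of 10% each lay between -0.38 and 0.33. On slide 2 it was also low in the other DsRed mutants, at -1.78 in PR-338, -2.38 in PR-164 and -2.44 in M1. On that slide 409 genes of PR-438 were at -1.5 or lower, 377 of them from the brightest 10%, and 274 of the 409 were at or below the same value in the 3 other DsRed mutants. On slides 1 and 3 the numbers at -1.5 or lower were 11 and 4. Of the 409 genes, 327 were above 0 on slide 1, and the 12 that passed are among the 61 that were below 0 on slides 1 and 3 as well. After a loess on brightness the 12 ratios ran from -1.05 to -0.57, and none passed (adjusted p = 0.237 to 0.562 by limma). After that loess 0 genes passed by limma, and 370 had an unadjusted p under 0.05. With slide 2 turned round, all 12 were above 0, and 57 genes were called higher and 1 lower. Without the array labelled PR-438 replicate 1 the 12 ratios ran from -1.62 to -1.19, and 0 genes passed by limma, while 402 had an unadjusted p under 0.05. With the replicate block 18 genes were lower, the 12 among them, and 2 were higher, MED6 and STP2. Without the dye term none of the 12 passed, and 324 genes had an unadjusted p under 0.05 by limma.

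**Figure D3:**
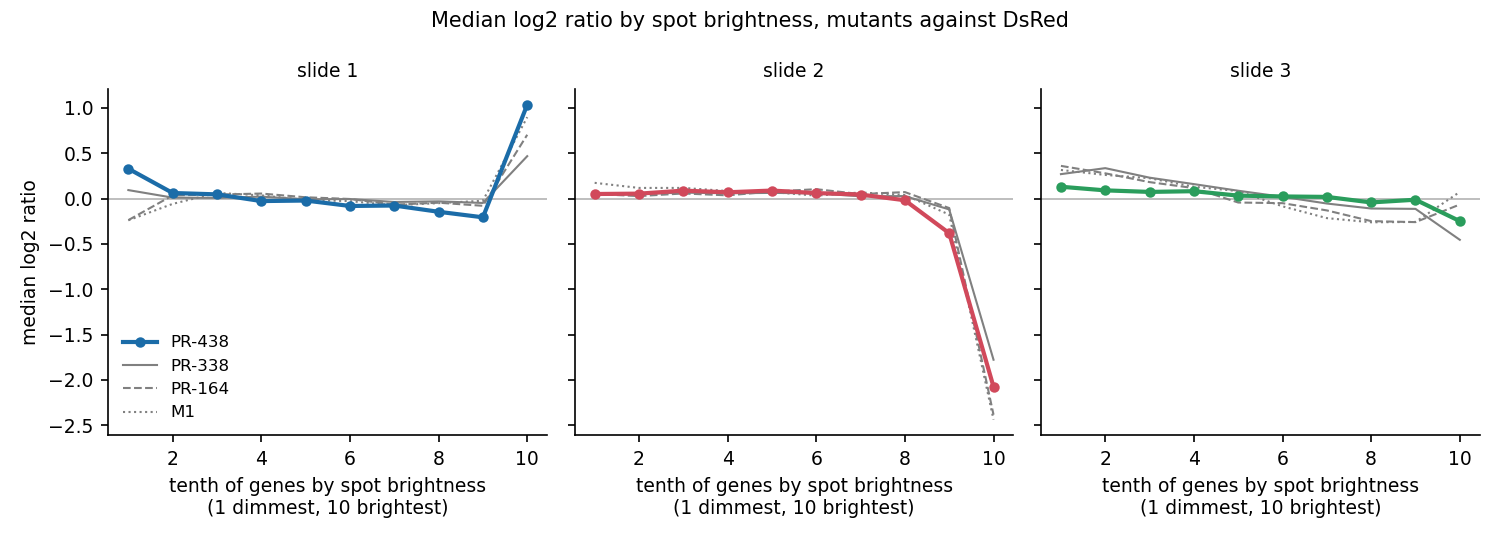
Median log2 ratio of genes in 10 classes of spot brightness, which was inferred from the ratios. Each panel is a slide, with PR-438 in colour and PR-338, PR-164 and M1 in grey. In the brightest class PR-438 stands at 1.03, -2.08 and -0.25 on slides 1, 2 and 3, and the other mutants bend the same way on slides 1 and 2.

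**Figure D4:**
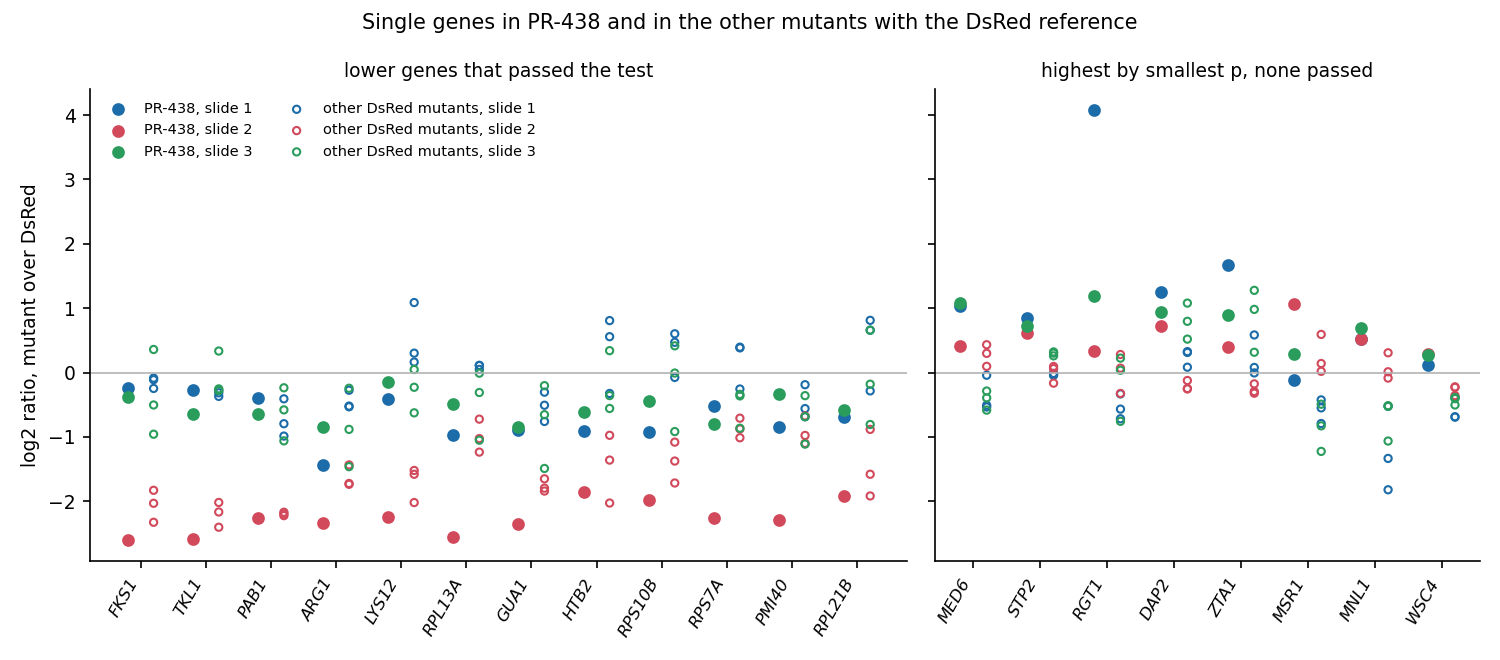
Log2 ratio of mutant over DsRed for the 12 genes that passed (left) and for the 5 highest genes by smallest p in each comparison (right). Filled points are PR-438 arrays and open points are arrays of PR-338, PR-164 and M1, coloured by slide. Slide 2 is the lowest PR-438 array for each of the 12 genes, and open points of slide 2 are low as well.

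The comparison with PR-338, PR-164 and M1 asks what sets PR-438 apart from mutants with the same reference. No gene passed (0 of 4065, 0%) by limma, with a lowest adjusted p of 0.407, and 316 genes had an unadjusted p under 0.05. Of those, 183 were higher in PR-438 and 133 lower, which is 4.5% and 3.27% of the genes. Chromosome VIII held 42 of the 183 and 0 of the 133, with 4.6% of all genes on it. Of the 12 genes lower against DsRed, 11 had a difference below 0, between -0.89 and 0.08 over the 12. An unadjusted p under 0.05 was found for 4, all lower, beside 3.27% of all genes. The 12 were picked for low PR-438 coefficients, which also enter the difference, so these counts are description only.

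The 5 highest genes by smallest p were MED6, RGT1, MSR1, MNL1 and WSC4, and all but RGT1 lie on chromosome VIII. MED6 differed by 1.02 ± 0.22 and MSR1, the mitochondrial arginyl-tRNA synthetase, by 0.80 ± 0.19. MNL1, a mannosidase-like protein of the degradation of misfolded glycoproteins, had 0.52, 0.53 and 0.69 in PR-438, against -1.82 to 0.31 in the others. WSC4, of a family of cell surface stress sensors, had 0.12, 0.29 and 0.27 in PR-438, against -0.69 to -0.22 in the others. For both genes the 3 PR-438 arrays lay above all 9 of the other arrays. The genes were ranked by p on these same arrays, so this adds no support. RGT1, the repressor of hexose transporter genes in low glucose, had 4.07, 0.34 and 1.19 in PR-438, against -0.76 to 0.28 in the others. Its difference of 2.10 ± 0.48 was largest on the array labelled replicate 1, and was 0.95 without that array. With slide 2 turned round the 5 differences stayed above 0, at 0.92 for MED6, 1.88 for RGT1, 0.27 for MSR1, 0.89 for MNL1 and 0.28 for WSC4.

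The 5 lowest by smallest p were SAS5, ARG7, ERG5, YRA2 and SKI8. SAS5, a subunit of a histone acetyltransferase complex that acts in silencing, had -0.46, -0.88 and -0.50 in PR-438, against -0.21 to 0.55 in the others. ARG7, the ornithine acetyltransferase of arginine synthesis, had -0.96, -1.07 and -0.36 in PR-438, against -0.35 to 0.84 in the others. ERG5, the C-22 sterol desaturase of ergosterol synthesis, had -0.49, -1.46 and -0.58 in PR-438, against -0.72 to 0.40 in the others. The PR-438 arrays of SAS5 and ARG7 lay below all 9 others, and ERG5 overlapped them. Here too the ranking by p used the same arrays. The differences were -0.76 ± 0.18 for SAS5, -0.95 ± 0.24 for ARG7 and -0.94 ± 0.26 for ERG5, and with slide 2 turned round they were -0.03, -0.38 and -0.02. YRA2, of a family of mRNA export factors, differed by -0.48 ± 0.14, and SKI8, of the Ski complex that feeds the RNA exosome, by -0.56 ± 0.16; turned, these were -0.15 and -0.38.

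Genes with 1 sign on all 3 PR-438 arrays numbered 1547 of 4064 with 3 values (38.1%), of which 844 were above 0 and 703 below. Ranked by the smallest size over the 3 arrays, the highest outside chromosome VIII were CTT1, UIP4, ALD3, HXT16 and GAC1. CTT1, the cytosolic catalase T of the general stress response, had 1.96, 0.82 and 1.10 in PR-438, against -0.42 to 2.05 in the others. ALD3, a stress-induced aldehyde dehydrogenase, had 2.00, 0.70 and 1.11 in PR-438, against -0.41 to 2.40 in the others. GAC1, a regulator of glycogen synthesis, had 1.40, 0.59 and 1.27 in PR-438, against -0.81 to 1.41 in the others. These 3 overlapped the other mutants on every array. UIP4, of unclear function, had 1.71, 0.71 and 2.08 in PR-438, against -1.93 to 0.88 in the others. HXT16, a putative hexose transporter with near-identical copies, had 2.47, 0.64 and 0.73 in PR-438, against -3.14 to 4.35. The HXT16 spots were among the dimmest, at a brightness percentile of 1.2.

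At the low end of that ranking stood MF(ALPHA)2, GUA1, ARG1, RPL9A, SPS4, PRY2, HAS1, PDC5, UTR2 and SEC14. MF(ALPHA)2, a gene for the alpha-factor pheromone, had -1.51, -2.11 and -2.80 in PR-438, against -6.80 to 0.54 in the others. HAS1, an RNA helicase of ribosome assembly, had -1.27, -0.75 and -0.70 in PR-438, against -0.91 to 0.36 in the others. PDC5, a pyruvate decarboxylase, had -1.10, -0.71 and -0.68 in PR-438, against -1.52 to 0.45 in the others. Each of these overlapped the other mutants, and HAS1 was below them on slide 1 alone. SPS4, a sporulation gene of unclear function, had -1.38, -0.80 and -0.85 in PR-438, against -0.70 to 2.07 in the others, with no overlap. As SPS4 was picked for its low PR-438 values, this is description only. PRY2, a secreted sterol-binding protein, UTR2, a chitin cross-linking enzyme, RPL9A and SEC14, the phosphatidylinositol transfer protein, were lowest on slide 2, like the 12 genes above.

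Most genes of ribosome biogenesis, RNA polymerases and the arginine and purine pathways had lower values in PR-438 than in the other DsRed mutants. The median difference was also -0.26 for aromatic amino acids (9 of 13 lower), -0.25 for sulfate and methionine (18 of 25) and -0.225 for pyrimidines (10 of 13). Without the array labelled PR-438 replicate 1 these were -0.09, -0.085 and -0.16. Some other biosynthetic lists stood closer to 0, at -0.11 for lysine synthesis and -0.11 for the glutamate and proline group. Translation factors had -0.14, with 27 of 44 lower. Branched-chain amino acids had -0.19, which turned to 0.25 without the array labelled PR-438 replicate 1. None of the members passed the test of that difference, so each list is described by its counts and median, beside an all-gene median of -0.01. Of 79 measured ribosome biogenesis genes, which assemble the ribosome in the nucleolus, 72 differed downward, with a median of -0.43. That median was -0.72 on slide 1, -0.43 on slide 2 and -0.17 on slide 3, and 15 members had an unadjusted p under 0.05, all lower, beside 3.27% of all genes. DBP2, an RNA helicase, had -1.40, -0.44 and -1.18 in PR-438, and differed by -1.19 ± 0.58. CBF5, the pseudouridine synthase of box H/ACA particles, had -0.98, -0.99 and -0.55 in PR-438, and differed by -0.71 ± 0.34. At the other end IMP3 had a fitted ratio of 0.20 and RRP4 one of 0.17, and both lie on chromosome VIII.

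RNA polymerase subunits followed the same order of slides, at -0.71, -0.25 and -0.07, with 25 of 30 below 0. RPA49 of RNA polymerase I had -1.01, -0.57 and -0.52 in PR-438 and differed by -0.98 ± 0.30, the lowest fitted ratio but one of the list. The lowest, RPO21, had a difference of 0.73, above 0. All 7 measured arginine and ornithine genes differed downward, with a median of -0.41, and at -0.997, -0.19 and -0.08 on slides 1, 2 and 3. ARG1 and ARG7 were the lowest of them against DsRed, and ARG4, the argininosuccinate lyase, whose gene lies on chromosome VIII, was the highest at 0.11. Of 18 purine synthesis genes 14 differed downward, with a median of -0.38 and with slide medians of -0.85, -0.27 and -0.03. Its highest member was IMD2 on chromosome VIII, with a difference of 0.84 ± 0.34. Aminoacyl-tRNA synthetases, which charge tRNAs, had a median difference of -0.27, with 13 of 18 below 0. Histidine synthesis genes had -0.38, with 5 of 7 below 0, but 0.11 on slide 3.

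The medians of ribosome biogenesis, RNA polymerase, arginine and purine genes were most negative on slide 1 and nearest to 0 on slide 3. Without the array labelled PR-438 replicate 1, the median difference was -0.22 for ribosome biogenesis, -0.15 for RNA polymerase subunits, -0.16 for arginine, -0.23 for purine and -0.19 for histidine genes. The all-gene median was then -0.02. That array lacked the chromosome VIII shift, and whether it holds PR-438 RNA was not tested. With slide 2 turned round the ribosome biogenesis median was -0.16 and the purine median -0.23.

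Cytosolic ribosomal protein genes had bright spots. Against DsRed 2 members of each list were among the 12 that passed, against 0.295% of all genes. All 12 lie among the 407 brightest genes. The large- and small-subunit lists had a median log2 brightness of 14.89 and 14.83, beside 10.79 over all genes. The share over all genes is therefore not one of equally bright genes. The median ratios against DsRed were -0.97 over 80 large-subunit genes and -0.89 over 55 small-subunit genes. On the arrays these medians were 1.04, -1.99 and -0.34 for the large subunit and 1.08, -1.96 and -0.33 for the small one. They changed sign between slides as the brightest 10% of all genes did. After the loess on brightness the fitted medians were -0.11 and -0.15. The median differences from the other DsRed mutants were 0.07 and 0.09, with -0.12, 0.46 and -0.10 by slide for the large subunit and 0.10, 0.39 and -0.16 for the small one. Without the array labelled PR-438 replicate 1 the fitted median differences were -0.24 and -0.26. The slides left in that fit, 2 and 3, had 0.46 and -0.10 for the large subunit and 0.39 and -0.16 for the small one. The dye term does not cancel in that fit, so the change of sign says nothing about these genes. Histones, with a median of -0.86 against DsRed, had 0.41, -1.98 and -0.17 by slide and -0.12 after the loess. Glycolysis and fermentation genes, at -0.80, had 1.10, -1.67 and -0.39 by slide and 0.05 after the loess. Mitochondrial ribosomal proteins, which are encoded in the nucleus and made separately from the cytosolic set, had a median of 0.12 against DsRed with 45 of 58 above 0, and a median difference of 0.08.

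Most genes of storage carbohydrates and of the general stress response had higher values in PR-438 than in the other DsRed mutants, by the most on slide 1. Of 21 trehalose and glycogen genes 18 differed upward, with a median of 0.48, and with 1.06, 0.16 and 0.16 on slides 1, 2 and 3. Of these, 6 had an unadjusted p under 0.05, all higher, beside 4.5% of all genes, and none passed. GDB1, the glycogen debranching enzyme, had 2.28, 0.38 and 1.83 in PR-438 and differed by 1.61 ± 0.55. At the low end, UGP1, which makes UDP-glucose, had 1.22, -2.36 and -0.54 in PR-438, against 0.17, -2.18 and -0.14 as the mean of the others. UGP1 and GSY2, a glycogen synthase, had the lowest fitted ratios of the list, and their differences were 0.16 and 0.05, which turned to -0.28 and -0.38 without the array labelled PR-438 replicate 1.

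General stress genes had a median difference of 0.48 as well, with 18 of 23 above 0, and 1.24, 0.07 and 0.06 by slide. GAD1, the glutamate decarboxylase, had 2.11, 0.38 and 1.21 in PR-438, and differed by 1.28 ± 0.57. CTT1 differed by 0.94 ± 0.51. DDR48 and HOR7, both stress-induced, had the lowest fitted ratios, at -1.004 and -1.06, with -2.32 and -2.04 on slide 2. Without the array labelled PR-438 replicate 1 the median difference was 0.17 for general stress genes and 0.19 for trehalose and glycogen genes. Heat shock chaperones had a median difference of 0.10, with 0.62, -0.01 and -0.08 by slide, and the median turned to -0.13 without that array. Autophagy and vacuolar protease genes had 0.23, with 20 of 24 above 0, but -0.02 and 0.00 on slides 2 and 3, and 0.14 without that array.

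**Figure D5:**
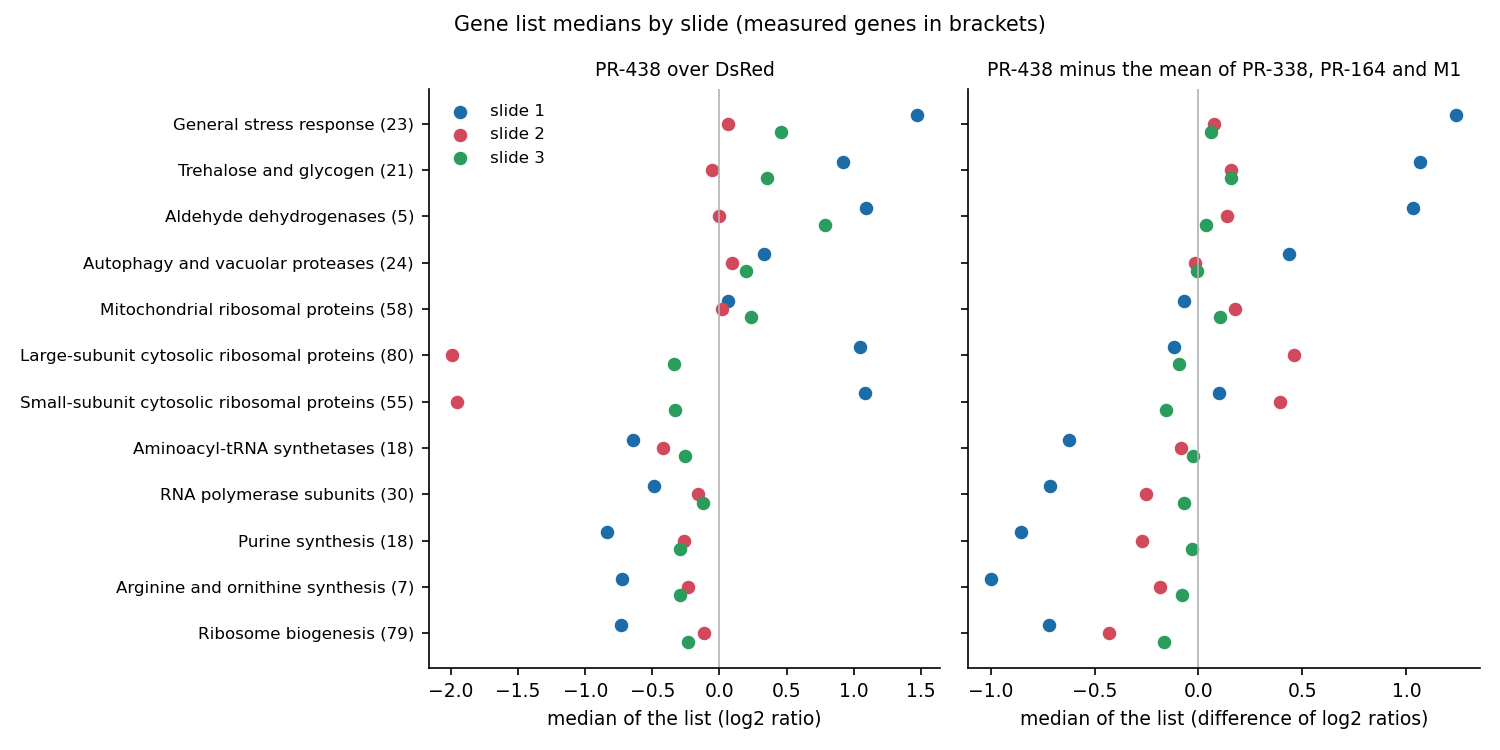
Medians of 12 gene lists by slide, for PR-438 over DsRed (left) and for PR-438 minus the mean of the other DsRed mutants (right). Points are slides and numbers in brackets are measured genes. Ribosome biogenesis stands at -0.72, -0.43 and -0.17 in the difference, and general stress at 1.24, 0.07 and 0.06.

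Genes that act directly on hydrolysate inhibitors showed no member that passed in either comparison. Aldehyde and furan reductases had a median of -0.13 against DsRed over 14 genes and a median difference of 0.05, with 7 above 0. ZTA1, a quinone reductase, had 1.67, 0.40 and 0.90 in PR-438, against -0.32 to 1.28 in the other DsRed mutants, with a fitted ratio of 0.88 ± 0.21 (adjusted p = 0.0592 by limma). ADH6, a reductase of furfural and other aldehydes, had -0.36, -0.57 and -0.27 in PR-438 and a fitted ratio of -0.48. The group thus had members on both sides, with OYE2 the lowest. Of 5 aldehyde dehydrogenases 3 were above 0 against DsRed, ALD3, ALD2 and ALD6. ALD4, the mitochondrial enzyme, had 1.40, -2.17 and 0.78 in PR-438. Weak acid and multidrug exporters had a median of 0.06 against DsRed and 0.03 in the difference over 26 genes, with SPI1, a cell wall protein of weak acid resistance, at 2.38, 0.38 and 0.67 in PR-438 and PDR5, the main drug efflux pump, at -0.26, -1.82 and -0.82. Thioredoxin, glutathione and peroxide genes had 0.02 in both. The median difference without the array labelled PR-438 replicate 1 was -0.02 for the exporters, -0.07 for the peroxide list and 0.01 for the reductases.

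The pentose phosphate pathway, which makes NADPH and handles pentose sugars, was split. SOL4, a 6-phosphogluconolactonase, had 2.20, 0.12 and 1.04 in PR-438 and differed by 1.62 ± 0.47, GND2 and TKL2, the minor isoforms, had fitted ratios of 1.00 and 0.97, and TKL1 and TAL1, the main transketolase and transaldolase, had -1.502 and -1.06. RKI1, the ribose-5-phosphate isomerase, differed by -0.71. Without the array labelled PR-438 replicate 1 the fitted ratios against DsRed were 0.58 for SOL4, 0.43 for GND2 and 0.32 for TKL2. The 0.58 of SOL4 is not the same measure as its difference of 1.62. Without that array RKI1 differed by -0.34. Of 12 members 7 differed upward and 5 downward, with a median of 0.28 that was -0.03 without the array labelled PR-438 replicate 1. Nitrogen catabolite genes had 14 of 18 above 0 in the difference, with a median of 0.09. CAR2, the ornithine transaminase that breaks down arginine, differed by 1.20 ± 0.43 and DUR3, a urea transporter encoded on chromosome VIII, by 0.92 ± 0.34. Among flocculins, the cell surface adhesins, 6 of 9 differed upward and 3 downward. FLO9, FLO5 and FLO10 differed by 0.74, 0.56 and 0.62, each with an unadjusted p under 0.05, beside 4.5% of all genes. None of them passed, and FLO5 lies on chromosome VIII. FLO9 and FLO5 are near-identical copies and may share signal.

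Ergosterol synthesis genes had a median difference of -0.27, with 16 of 26 below 0, and ERG5 the lowest member by p. ERG25, a methyl sterol oxidase, had the lowest fitted ratio at -1.05, with -0.26, -0.88 and -1.30 on slides 1, 2 and 3. Galactose and maltose genes had a median difference of 0.24, with 1.16, 0.17 and -0.38 on slides 1, 2 and 3, and the median turned to -0.05 without the array labelled PR-438 replicate 1. MAL31 and MAL11, maltose permease genes, differed by 0.75 and 0.85 (0.73 and 0.30 without that array), and GAL10 and GAL1 had the lowest fitted ratios, at -0.76 and -1.16. The 7 a-cell-specific genes of PR-438 had a fitted median of 0.26 against DsRed, above the medians of the single arrays at 0.14, -0.15 and 0.06, and it was 0.02 without the array labelled replicate 1 and -0.02 after the loess. The 4 alpha-cell genes had -0.88, with all 4 below 0, and the same genes had -0.98 in PR-338 and -0.75 in PR-164. With slide 2 turned round the PR-438 median of these genes was -0.14. The differences of both mating lists from the other mutants, -0.81 and 0.47, include M1, whose mating genes stood far from DsRed. With M1 left out of the comparison 0 genes passed by limma (316 genes at an unadjusted p under 0.05 with M1 and 147 without it), and the chromosome VIII difference was 0.34 (adjusted p = 0.00746 by limma).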

How the data were processed

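Per the labels, total RNA of each mutant and its reference was labelled with Cy3 and Cy5 and hybridised together, and slide 2 had the dyes exchanged. The authors deposited 1 table of 24 arrays, whose values are linear ratios between channels, some at or below 0. The scanner files were not used here, and their background correction is not stated by the labels. Brightness was therefore inferred: the smallest whole numbers whose quotient gives a ratio stood for the channels. A probe's brightness was the median over the arrays without PY-231 replicate 1. Log2 values were computed from the deposited ratios above 0, and the median over named probes was subtracted from each array. Of 15744 probes, 8152 have 1 gene symbol in the platform annotation and 7592 have none. The probes of a gene were averaged to 4065 genes, and 129 symbols were updated through a synonym. On the PR-438 arrays 3.16%, 2.14% and 3.21% of spots were at or below 0, and precision is limited by how many arrays there are.

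Limma 3.58.1 in R 4.3.3 fitted all 24 arrays with 1 coefficient for each mutant plus a term for dye (lmFit and eBayes, Benjamini-Hochberg adjustment, threshold 0.05). PR-438 was tested against 0, which takes no account of spread among reference cultures, and against the mean of PR-338, PR-164 and M1. Chromosome medians were fitted the same way. Nothing says that replicates came from separate cultures beyond the series description, so p-values may measure technical spread. Replicate numbers pair arrays through the shared slide: deviations of PR-438 correlated with those of the other DsRed mutants on the same slide at 0.075 to 0.743 over 9 pairs, and a replicate block was an alternative.

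The text names the genes that passed, the 5 highest and 5 lowest by smallest p in a comparison where fewer passed, the 10 highest and 10 lowest of 1 sign on 3 arrays, the 2 highest and 2 lowest of a described list, any member of a list of 12 or fewer, and 5 high and 3 low genes of chromosome VIII. STE2 was added after its values were seen. The arrays, the 51 gene lists and the tests were chosen with earlier results of these data known, and RPP1 and MRP8, which are no ribosomal proteins, were taken out of the lists built from gene names after the values were seen. Alternatives were the direction of slide 2, loess on brightness (span 0.3), quantile normalization, dropping the dimmest 25% of genes, the samples in the fit, the rule for probes and each array left out.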

Additional observations from a re-analysis of the deposited data

Results flagged for a closer look

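The difference in chromosome VIII between PR-438 and the mean of PR-338, PR-164 and M1 was 0.33 (0.334) on the log2 scale, and the test of that difference passed (adjusted p = 0.0051 by limma). By slide the chromosome median of PR-438 minus the mean of theirs was 0.00 (0.004), 0.46 and 0.54. An array outside the comparisons also had a high value: the array labelled PG-259 replicate 1, set against the GFP reference, stood at 0.416 on chromosome VIII, while PG-259 replicates 2 and 3 stood at 0.03 and 0.08. Both the array labelled PG-259 replicate 1 and the array labelled PR-438 replicate 1 lay on slide 1, and whether their labels are right was not tested.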

How the results depend on the processing

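Against DsRed the counts of genes higher and lower, 0 and 12, were 57 and 1 with slide 2 turned round, 2 and 18 with the replicate block, 21 and 36 after quantile normalization and 3 and 35 without the dimmest genes. They were 0 and 0 without the dye term, after loess, after loess with slide 2 turned, after loess without PR-438 replicate 1, and without PR-438 replicate 1 and M1 replicate 1 together. Against the other DsRed mutants 0 genes passed by limma (316 at an unadjusted p under 0.05), with 1 higher after loess with slide 2 turned. Over the fits that leave out 1 array or slide, 0 to 2 genes were higher and 0 to 14 lower against DsRed, and 0 to 2 were higher and 0 to 1 lower against the other mutants.

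The chromosome VIII shift was -0.008 with slide 2 turned and -0.007 with loess as well, and its difference from the other mutants was 0.029 in both. Leaving out an array or slide gave 0.226 to 0.45 for the shift and 0.231 to 0.498 for the difference. With the replicate block, which pairs arrays by slide, they were 0.306 and 0.334. With slide 2 turned the 12 genes reversed, to 1.00 for FKS1, 0.92 for TKL1, 0.83 for PAB1, 0.37 for ARG1, 0.80 for LYS12, 0.64 for RPL13A, 0.60 for GUA1, 0.31 for HTB2, 0.42 for RPS10B, 0.53 for RPS7A, 0.65 for PMI40 and 0.45 for RPL21B. With loess and slide 2 turned, FKS1 was 0.11, LYS12 0.03 and the difference of SAS5 0.003. The cause of these changes was not tested. Beyond them, the number of arrays and the unresolved brightness of the strongest spots limit the values.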
